A study of Homo sapiens with 14 samples.

Results

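The ABLIM, SORBS and FILIP1 genes code for proteins that tie actin filaments to adhesion sites, to LIM-domain partners or to filamin. The 6 genes listed were ABLIM1, ABLIM3, SORBS2, SORBS3, FILIP1 and FILIP1L, and they were chosen by measured values, namely the fold changes after LINC00152 knockdown in A172 cells and the difference from U87 cells. Of these 6 genes, 5 had a matched probe, and those 5 genes carried 10 of the 50599 probes on the array. The array named 20992 genes in all, and no probe was matched to ABLIM1. The members' values in both lines and their differences between the lines are therefore given as a description, with no test.

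Gene expression was measured on 14 one-color Agilent arrays of total RNA from the human glioblastoma lines A172 and U87. Cells were electroporated with a negative control siRNA without a target (3 A172 and 4 U87 arrays) or with an siRNA against exon 1 of LINC00152, a long non-coding RNA also called CYTOR (3 A172 and 4 U87 arrays). RNA was taken 40 h later by the sample labels, and the study's methods give another time. Each control array was paired with the knockdown array of the same set number. The study's methods call the replicates biological and independent, while the labels only number them, and the p-values measure the spread between these samples.

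The question was how these actin-linked genes stood after the knockdown in each line. Signals are given as log2 of the processed signal relative to the 75th percentile of the array, so that 0 is the 75th percentile. The number of arrays limits the precision. The 75th percentile lay between 131 and 284 signal units on the A172 arrays and between 33.0 and 69.0 on the U87 arrays. The share of spots well above background, a call of the scanner software, was 57.3% to 69.0% in A172 and 35.7% to 48.3% in U87. Each A172 pair had a slide of its own and the 8 U87 arrays shared 1 slide, so levels of the lines cannot be told apart from slide and scan. One array stood apart: U87 control set 3 had the lowest 75th percentile, 33.0, and the lowest share of spots well above background, 35.7%.

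Actin-binding LIM proteins (ABLIM) carry LIM domains and a villin-type headpiece that binds actin filaments. SORBS proteins are adaptors with SH3 domains and a sorbin homology region, and SORBS3 (vinexin) binds vinculin at focal adhesions. FILIP1 binds filamin A and promotes its degradation, and FILIP1L is its relative.

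An siRNA is shown because every comparison rests on the knockdown. The study's supplementary table lists 2 siRNAs against exon 1 of LINC00152, #1 and #2, and the labels do not say which was on the arrays. Of these, #1 is given, which the study's figure on both lines names, as 25 bases of DNA letters, 5′ to 3′.
siLINC00152 #1: tgcctgtcttcagatcttcacagca

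The knockdown was visible at the CYTOR (LINC00152) probe in both lines. The CYTOR probe A_24_P273143 had log2 signals of 2.63, 2.44 and 2.48 in A172 controls and 0.23, -0.42 and -0.10 after siLINC00152. In U87 it stood at 1.94, 1.83, 1.71 and 1.82 in controls and at -1.21, -0.88, -0.74 and -0.79 after siLINC00152. The groups did not overlap in either line. It fell in both lines, with log2 fold changes of -2.61 in A172 (limma adjusted p = 0.000731, lower in 3 of 3 pairs) and -2.73 in U87 (adjusted p = 4.96e-05, lower in 4 of 4 pairs). A probe of the closely related MIR4435-2HG transcripts, A_21_P0012079, fell by 2.44 in A172 (adjusted p = 0.00339, 3 of 3 pairs) and by 2.97 in U87 (adjusted p = 7.13e-05, 4 of 4 pairs). The other 3 probes grouped here as locus probes are A_21_P0012078 and A_33_P3269678, named for MIR4435-2HG, and A_21_P0012077, without a gene name. All 3 had negative log2 fold changes in every pair of both lines. Of these, A_21_P0012077 fell by 1.62 in U87 (adjusted p = 0.120), a call lost in 16 of 38 alternatives, among them every fit without a whole U87 set. In A172 it had -1.16 and passed when sets were paired by a block (adjusted p = 0.659 without and 0.00699 with it). A_21_P0012078 had -1.53 in A172 (adjusted p = 1.00, with the block 0.0126) and -2.08 in U87 (adjusted p = 0.316, with the block 0.00446) and so passed in both lines with the block but in neither without it. The smallest change was that of A_33_P3269678, with -0.31 in A172 (adjusted p = 1.00) and -0.31 in U87 (adjusted p = 1.00).

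In A172 the ABLIM3 probe A_24_P123408 and the FILIP1L probe A_23_P252052 had lower signals on every knockdown array than on any control array, and 2 dim SORBS2 probes had higher signals in every pair. In U87 that ABLIM3 probe and that FILIP1L probe had higher signals in every pair, by smaller amounts. The shares of all tested probes with such patterns are not given, so these patterns are a description. The groups of the other ABLIM3 probe overlapped in both lines. In bulk samples such as these, fewer cells of a type and less RNA per cell cannot be told apart. Of the 10 probes, 7 were bright enough to be tested in A172 and 5 in U87, and that needed a signal well above background on 3 or more arrays of 1 group. The thresholds of the study's methods are 0.2 for the adjusted p and 0.5 for the size of the log2 fold change. Without a block, 0.183% of the 28340 probes tested in A172 passed them (39 lower and 13 higher) and 0.0502% of 21922 in U87. With the replicate number as a block, which makes the comparison paired, the shares were 3.26% and 4.19%. Standard errors (SE) below come from the fit without a block unless the block is named.

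ABLIM3 codes for an actin-binding LIM protein. Its probe A_24_P123408 had log2 signals of -0.62, -0.99 and -0.26 on the A172 control arrays of sets 1, 2 and 3. After siLINC00152 the same sets gave -2.87, -3.36 and -3.12. The knockdown arrays lay below every control array, and 2 of the 3 were still well above background. The log2 fold change was -2.50 ± 0.25 (SE, 3 arrays a group), which is 17.7% of control, with pair differences of -2.26, -2.37 and -2.86, and the SE was 0.15 with the replicate block. In U87 the probe stood at 1.75, 1.83, 2.02 and 2.13 in controls. After siLINC00152 it stood at 2.02, 2.26, 2.13 and 2.27 in U87. The U87 groups overlapped, while each knockdown array was above its own control. The U87 log2 fold change was 0.24 ± 0.22 (SE, 4 arrays a group), and the A172 effect minus the U87 effect was -2.74 ± 0.33. With the replicate block the SE of this difference was 0.20. With normexp background correction (offset 50) and quantile normalization, the A172 log2 fold change was -0.79 and the difference between the lines -1.02. An earlier result of these data under that treatment was larger in size for this probe in A172, for a reason not found, so the -0.79 is uncertain.

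The other ABLIM3 probe, A_23_P256205, is annotated to the same transcript and was well above background on all 14 arrays. In A172 controls its log2 signals were -0.07, 0.61 and 0.33, and after siLINC00152 they were -0.34, 0.45 and -0.35. Its A172 log2 fold change was -0.37 ± 0.30 (SE, 3 arrays a group), each pair was lower, and over 38 alternatives the value ran from -0.64 to -0.21. The probe's SE in A172 was 0.16 with the replicate block. In U87 its log2 fold change was -0.00 ± 0.26 (SE, 4 arrays a group), with 2 pairs lower and 2 higher. The ABLIM3 probes therefore gave effects of different size in A172, and which of them follows the gene was not tested.

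FILIP1L is related to the filamin-binding protein FILIP1. On the A172 control arrays its probe A_23_P252052 had log2 signals of 2.21, 1.39 and 0.95. On the A172 knockdown arrays the signals were -0.27, -1.39 and -0.88, all well above background. The groups did not overlap, and the log2 fold change was -2.36 ± 0.48 (SE, 3 arrays a group), or 19.4% of control, with pair differences of -2.47, -2.78 and -1.83, and the SE was 0.21 with the block. In U87 the FILIP1L probe was dim in controls, at -2.04, -1.67, -1.29 and -0.38, and 2 of these 4 arrays were well above background. After siLINC00152 it stood at -0.98, -1.39, -0.50 and 0.04 in U87, with 4 of 4 arrays well above background, and met the signal limit through these arrays alone. The groups overlapped, and every U87 pair was higher after knockdown. The U87 log2 fold change was 0.64 ± 0.42 (SE, 4 arrays a group), and the standard error was 0.19 with the replicate block. The A172 effect minus the U87 effect was -3.00 ± 0.64, and its SE was 0.28 with the block. Since the U87 controls were dim, the sizes of the U87 value and of this difference are uncertain. Under normexp and quantile normalization FILIP1L had -1.50 in A172 and 0.30 in U87. The gene's other probe, A_33_P3222391, is annotated to the same transcript, was well above background on only 1 of 14 arrays (U87 siLINC00152 set 4) and was not tested.

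**Figure D1:**
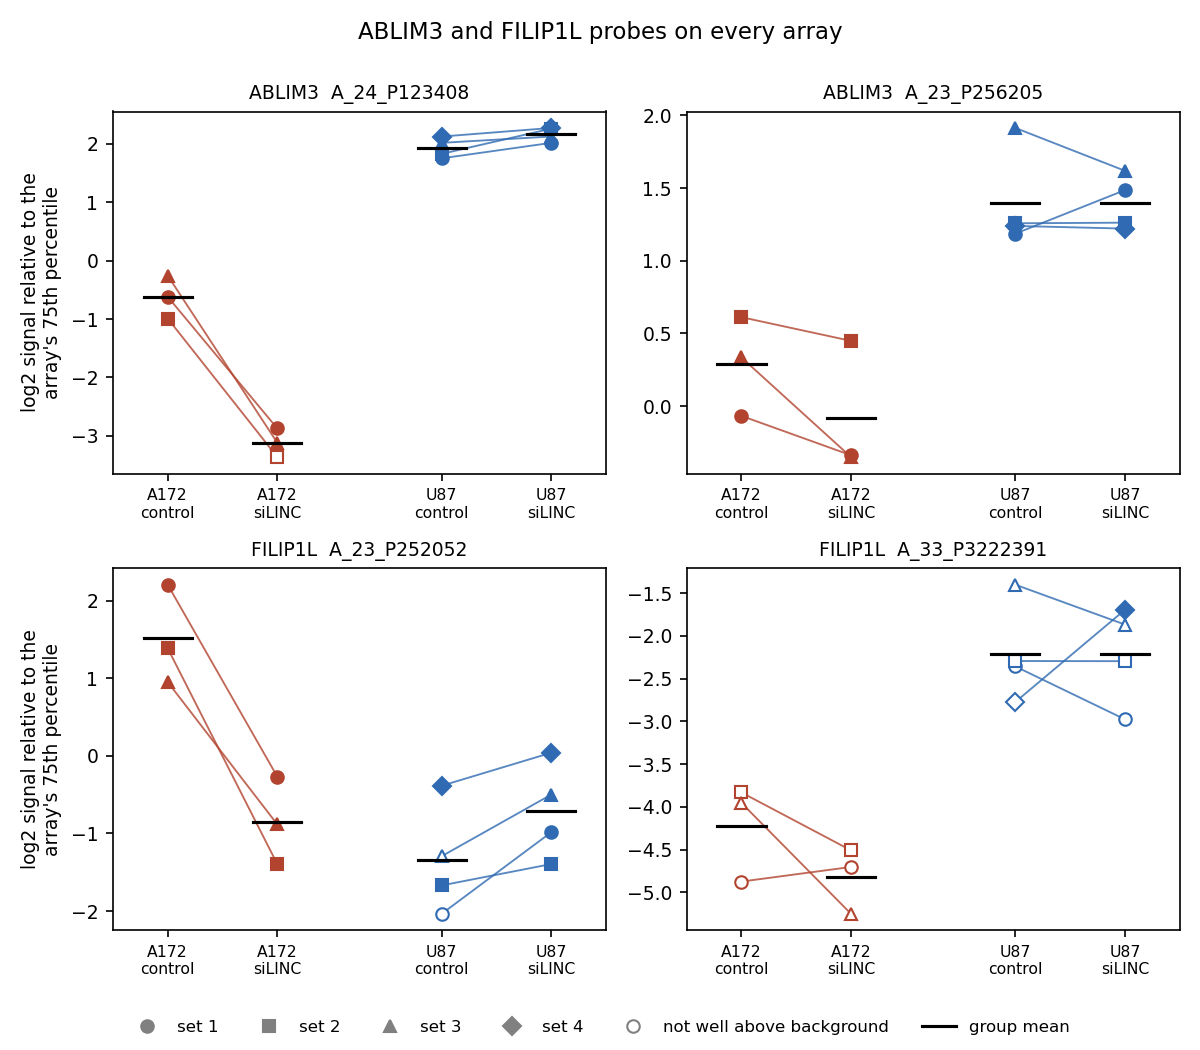
Log2 signal of the ABLIM3 and FILIP1L probes on each array (y axis, relative to the array's 75th percentile) by group (x axis), with lines joining arrays of the same set number and open symbols for arrays not well above background and short black lines at group means. The ABLIM3 probe A_24_P123408 and the FILIP1L probe A_23_P252052 are lower in all 3 A172 pairs and higher in all 4 U87 pairs after siLINC00152 (siLINC), while the mean difference of the ABLIM3 probe A_23_P256205 in A172 is -0.37.

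SORBS2 (ArgBP2) is an adaptor that binds ABL kinases and actin regulators. Its probe A_23_P121795, with 10 spots on each array, had A172 control signals of -4.07, -3.68 and -3.96, and 1 of those 3 arrays was well above background. After siLINC00152 the A172 signals were -2.98, -2.21 and -1.63, all well above background. The groups did not overlap, and the pair differences were 1.09, 1.47 and 2.33. The probe met the signal limit through the knockdown arrays alone, so the mean difference of 1.63 is taken against signals near background and its size is uncertain. The probe A_24_P140475, annotated to the same SORBS2 transcript, gave A172 control signals of -2.82, -2.00 and -2.55 and knockdown signals of -2.18, -1.36 and -0.85. Its A172 groups overlapped, each pair was higher, and the log2 fold change was 0.99 ± 0.44 (SE, 3 arrays a group). With the replicate block that SE was 0.25. Neither probe was well above background on any U87 array, so no U87 fold change is given for them. With normexp and quantile normalization these A172 log2 fold changes were 0.28 and 0.29.

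The probe A_33_P3406861 is annotated to another SORBS2 transcript. It was brighter, well above background on all 14 arrays, with a mean log2 signal of -0.35 in A172 controls and -0.27 after siLINC00152. Its log2 fold change was 0.08 ± 0.43 (SE, 3 arrays a group) in A172. In U87 it was 0.00 ± 0.37 (SE, 4 arrays a group, lower in 3 of 4 pairs). Without a block this U87 value had a 95% confidence interval of -0.79 to 0.80, and with the block its SE was 0.17.

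SORBS3 (vinexin) had the highest signal of the member probes, with A_33_P3409625 well above background on all 14 arrays. Its mean log2 signal was 9.94 in A172 controls and 10.00 after siLINC00152, and the log2 fold change was 0.06 ± 0.47 (SE, 3 arrays a group). In U87 the controls stood at 8.98, 8.90, 7.54 and 7.92, and the knockdown arrays at 8.53, 8.52, 7.11 and 7.81. The U87 groups overlapped while every knockdown array was below its own control. The U87 log2 fold change was -0.34 ± 0.41 (SE, 4 arrays a group) and ranged from -0.60 to -0.05 over 38 alternatives. With the replicate block, the paired comparison, its standard error was 0.12. No call is made on this value, since the difference from U87 entered the choice of the genes.

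FILIP1 itself was near background. Its probe A_23_P436369 was well above background on 0 of the 14 arrays, by the scanner software's call. Its probe A_33_P3276435 was well above background on 1 of them, A172 control set 1. Neither FILIP1 probe was tested, so the data give no fold change for the gene.

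**Figure D2:**
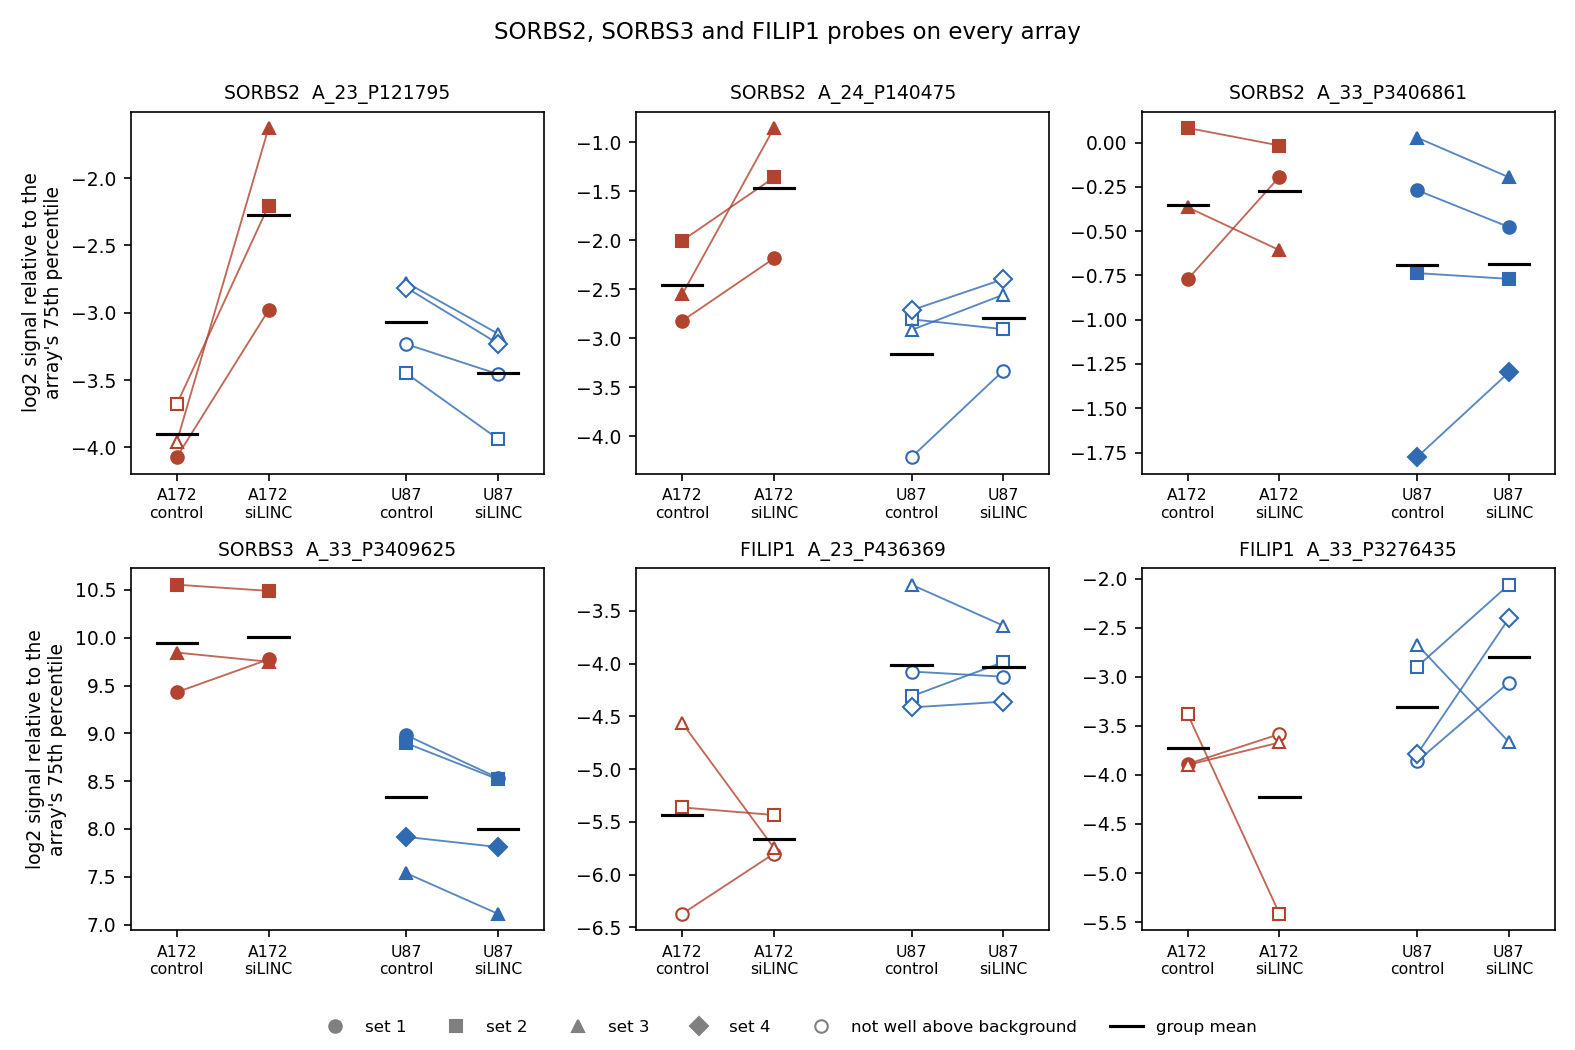
Log2 signal of the SORBS2, SORBS3 and FILIP1 probes on each array (y axis, relative to the array's 75th percentile) by group (x axis), with lines joining arrays of the same set number and open symbols for arrays not well above background and short black lines at group means. The SORBS2 probes A_23_P121795 and A_24_P140475 are higher in all 3 A172 pairs after siLINC00152 (siLINC), at signals below the 75th percentile, and SORBS3 lies between 7.11 and 10.55 on every array.

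**Figure D3:**
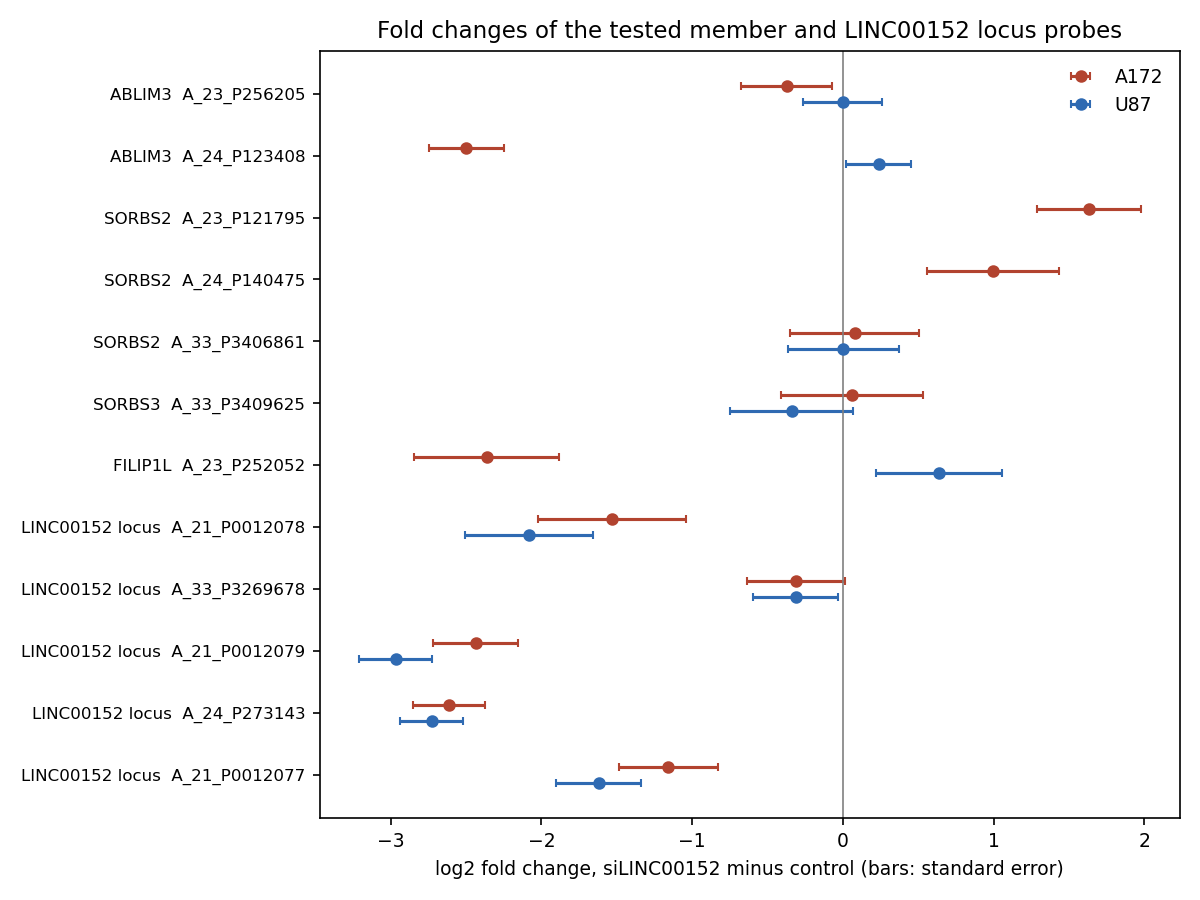
Log2 fold change after siLINC00152 (x axis) of each tested member probe in A172 and U87 (y axis), and of the LINC00152 locus probes, with standard errors of the fit without a block as bars. ABLIM3 by A_24_P123408 and FILIP1L lie at -2.50 and -2.36 in A172 and at 0.24 and 0.64 in U87.

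Across the 14 arrays, after centring each line on its mean, the signals of ABLIM3 (A_24_P123408) and FILIP1L had a Pearson r of 0.84. The arrays share pairs and slides and both probes were chosen by the same contrast, so this r is a description. The ABLIM3 probes had an r of 0.31 with each other. By the same measure, the probes of other named genes most like ABLIM3 (its probe A_23_P256205) were those of OSBPL1A (r = 0.903), KRT4 (r = 0.887) and USP27X (r = 0.887). FILIP1L was most like TMEM43 (r = 0.856), CRYBG1 (r = 0.846) and PDE4DIP (r = 0.841). The probes most like SORBS2 (A_33_P3406861) were those of TMEM52 (r = 0.971), AOC1 (r = 0.957) and NCR3 (r = 0.951). For SORBS3 they were those of LINC01001 (r = 0.988), FAM131C (r = 0.985) and EN2 (r = 0.975).

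The promoters are shown because ABLIM3 and FILIP1L were both lower in A172 and because SRF, whose coactivators are the MRTF proteins, binds the CArG box. The windows come from RefSeq on GRCh38.p14 and run from 250 bases before to 50 after the start of a gene. The CArG box was searched by its consensus; the motif reads the same on both strands and no other motif was searched. It was found in 454 of all 35116 windows (1.29%). Promoter entries were matched for 5 of the 6 genes, and SORBS3 had none. FILIP1L had a box in 1 of 2 windows, with its first base 60 bases before the start. FILIP1 had a box in its 1 window, 176 bases before the start. ABLIM1 (6 windows), ABLIM3 (2 windows) and SORBS2 (8 windows) had no match, which says only that these letters are not in these windows. The 250 bases before the start follow for FILIP1L at chr3:99876174-99876423 (minus strand), FILIP1 at chr6:75493801-75494050 (minus strand) and ABLIM3 at chr5:149141243-149141492 (plus strand), each read 5′ to 3′ on the strand of the gene, with the CArG box in capitals.
FILIP1L: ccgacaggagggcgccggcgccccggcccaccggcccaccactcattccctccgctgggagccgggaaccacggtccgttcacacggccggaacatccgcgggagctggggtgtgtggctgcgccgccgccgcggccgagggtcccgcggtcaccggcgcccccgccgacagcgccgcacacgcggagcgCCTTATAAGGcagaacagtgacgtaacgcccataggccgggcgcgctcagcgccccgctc
FILIP1: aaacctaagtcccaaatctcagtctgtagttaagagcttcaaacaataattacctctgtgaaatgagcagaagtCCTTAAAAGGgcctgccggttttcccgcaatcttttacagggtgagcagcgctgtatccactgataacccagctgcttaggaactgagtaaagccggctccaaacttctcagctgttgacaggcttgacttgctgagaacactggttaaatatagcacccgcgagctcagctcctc
ABLIM3: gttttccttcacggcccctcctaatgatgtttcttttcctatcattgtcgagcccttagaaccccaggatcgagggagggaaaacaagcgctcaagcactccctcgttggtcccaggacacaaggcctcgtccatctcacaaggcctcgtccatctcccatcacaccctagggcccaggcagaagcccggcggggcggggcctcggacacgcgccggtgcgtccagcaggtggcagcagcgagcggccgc

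For the wider actin system, 78 other genes were listed in 4 groups from general knowledge, with earlier results of these data known. The counts below cover all 4 groups, of which 3 are described one by one, and the brightest tested probe stood for each gene. In A172, 75 of the 78 were tested, with a median log2 fold change of -0.16, and 57 were negative and 18 positive. In U87, 68 were tested, with a median of 0.15, and 22 were negative and 46 positive. Over all tested probes the median was 0.02 in A172 and -0.02 in U87, and 45.7% and 52.6% of these probes were negative. These shares count every tested probe, while the listed counts take 1 probe per gene. The U87 median of the listed genes rested on control set 3: without that array, as tried after seeing the data, it was 0.02, with 30 negative and 37 positive of 67 genes, beside 0.03 over all tested probes. Without both arrays of U87 set 3 it was 0.07. In A172, 1 listed gene passed the thresholds in limma without a block and 4 had an unadjusted p under 0.05. In U87, limma gave 0 listed genes past the thresholds and 4 at an unadjusted p under 0.05. The shares of all tested probes at that unadjusted cut are not given, so nothing is read from these counts of 4. With the replicate block, 9 passed in A172 (8 lower and 1 higher, 7 of the 9 in the groups described) and 7 in U87 (2 lower and 5 higher). That is 12% and 10.3% of the tested listed genes, where 3.26% and 4.19% of all tested probes passed. These shares are unlike, since the listed ones use only the brightest probe of a gene and the others every tested probe. The lists were also chosen with earlier results known, so no enrichment is read from them.

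The blocked counts moved when sets were left out, and so did the shares of all tested probes. Without each A172 set in turn, 5, 3 and 3 listed genes passed in A172 with the block, beside 1.18%, 1.06% and 0.793% of all tested probes. In U87 the blocked count was 0, 0, 5 and 0 without U87 sets 1, 2, 3 and 4, beside 0.738%, 0.434%, 3.48% and 0.823% of all tested probes. Leaving out a set of the other line also moved the blocked counts, through the shared variance: A172 had 5, 5, 13 and 4 without U87 sets 1, 2, 3 and 4 (2.45%, 2.52%, 5.02% and 2.63% of all), and U87 had 6, 3 and 4 without A172 sets 1, 2 and 3 (3.37%, 1.89% and 2.01% of all). The blocked counts also depend on which probes moderate the variance, a choice made after its effect had been seen. When each line's own tested probes moderated it, the full data gave the same counts of 9 and 7, but the U87 count without a set ranged from 6 to 12 rather than from 0 to 6. When all probes on the array moderated it, the counts with the block were 4 and 3.

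The SRF and MRTF regulated contractile genes code for smooth-muscle actin, calponins, tropomyosins, myosin and matricellular targets. In A172, 19 of 21 were tested, with a median log2 fold change of -0.25, and 16 were negative and 3 positive. Without A172 set 2 that median was -0.13, with 14 negative and 5 positive. MYH9, the heavy chain of non-muscle myosin IIA, fell by 1.25 ± 0.22 (SE) in A172 (adjusted p = 0.0538, lower in 3 of 3 pairs). This call was lost in 9 of the 21 fits without a set or an array, namely without A172 sets 1, 2 or 3, U87 sets 1 or 2, A172 control sets 2 or 3, or A172 siLINC00152 sets 1 or 3, with adjusted p from 0.216 to 1.00. SRF itself, the transcription factor, had -1.35 (adjusted p = 0.506, lower in 3 of 3 pairs) and passed only with the block (adjusted p = 0.0126), and under normexp it had -0.17. CNN1 (calponin 1) had -0.89 (adjusted p with the block 0.164, 3 of 3 pairs), or -0.32 under normexp. ACTA2 had -0.58 (adjusted p with the block 0.170, 3 of 3 pairs), or -0.15 under normexp. CCN2, a secreted matricellular protein, went the other way with 0.82 (adjusted p with the block 0.139, higher in 3 of 3 pairs). In the 7 blocked fits without a set, CNN1 passed in 1, ACTA2 in 1 and CCN2 in 2. Without A172 control set 1 ACTA2 had -0.24.

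In U87, 16 of the 21 contractile genes were tested, with a median log2 fold change of 0.43, and 4 were negative and 12 positive. Without U87 control set 3 that median was 0.17. With the replicate block, 5 genes were higher and 1 lower. The matricellular genes CCN1 and CCN2 had 0.97 (adjusted p with the block 0.124, 4 of 4 pairs) and 0.83 (adjusted p with the block 0.0896, 4 of 4 pairs). The calponins CNN2 and CNN3 had 0.80 (adjusted p with the block 0.0671, 4 of 4 pairs) and 0.78 (adjusted p with the block 0.152, 4 of 4 pairs). ACTG1, a cytoplasmic actin, had 0.56 (adjusted p with the block 0.120, 4 of 4 pairs). MYH9 was again negative, at -0.60 (adjusted p with the block 0.0850, 4 of 4 pairs). These values rest in part on U87 control set 3: without that array CCN1 had 0.58, CCN2 0.19, CNN3 0.19 and ACTG1 0.16. Under normexp CCN1 had 0.55, CCN2 0.37 and CNN3 0.52. In the 7 blocked fits without a set, CNN2 and MYH9 passed in 4 each, CCN1 in 2, ACTG1 in 1 and CNN3 in 0, while CCN2 passed in the 4 in which it was tested. CCN2 was not tested without U87 sets 1, 2 or 4, so set 3 was the only U87 set left out in those fits. None of these 6 U87 calls was made by limma without the block, where each adjusted p was 1.00 and 4 of the 16 contractile genes had an unadjusted p under 0.05. The share of all tested U87 probes at that unadjusted cut is not given, so this count of 4 is a description.

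Focal adhesion and LIM adaptor genes were tested for 20 of 20 genes in A172, with a median of -0.23, and 16 were negative and 4 positive. FHL2, a LIM-only adaptor, had -1.33 (adjusted p = 0.536, with the block 0.00695, 3 of 3 pairs). Its other probe A_23_P108751 gave -0.19, and under normexp the FHL2 value was -0.55. PDLIM7, a PDZ and LIM protein, had -0.83 (adjusted p with the block 0.0732, 3 of 3 pairs), and its other probes A_33_P3217213 and A_33_P3384562 gave -0.85 (adjusted p with the block 0.0882) and 0.02. In U87, 18 were tested, with 7 negative and 11 positive and a median of 0.10, which was 0.02 without U87 control set 3 and -0.04 without U87 set 3. There FHL2 had -0.53 (adjusted p with the block 0.0936, 4 of 4 pairs), or -0.33 without U87 control set 3, and passed in 3 of the 7 blocked fits without a set. SRF, MYH9 and FHL2 in A172 passed in 7 of these 7 fits and PDLIM7 in 5.

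Of the family relatives and binding partners, 16 of 17 were tested in A172 with a median of -0.20 (-0.08 under normexp and quantile normalization). By the brightest probe 0 passed in limma, with or without the block, and 0 had an unadjusted p under 0.05. The lowest were filamin A, FLNA, at -0.54 (-0.36 without A172 siLINC00152 set 3) and palladin, PALLD, at -0.45 (-0.27 without A172 set 3). A dimmer PALLD probe, A_33_P3423979, had -0.55 and passed with the block (adjusted p = 0.189). Of the 4 positive values, that of ABL2 was 0.12 and turned negative without single arrays. In U87, 14 were tested with a median of 0.02 (-0.09 without U87 control set 3), and again 0 passed in limma, with or without the block, and 0 had an unadjusted p under 0.05. There PTPN12, a phosphatase, had -0.50 (0.11 without U87 siLINC00152 set 3 and -0.09 under normexp) and FLNC -0.44 (-0.26 without that array), while vinculin, VCL, had 0.44 (0.02 without U87 control set 3) and SPTAN1 had 0.23.

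**Figure D4:**
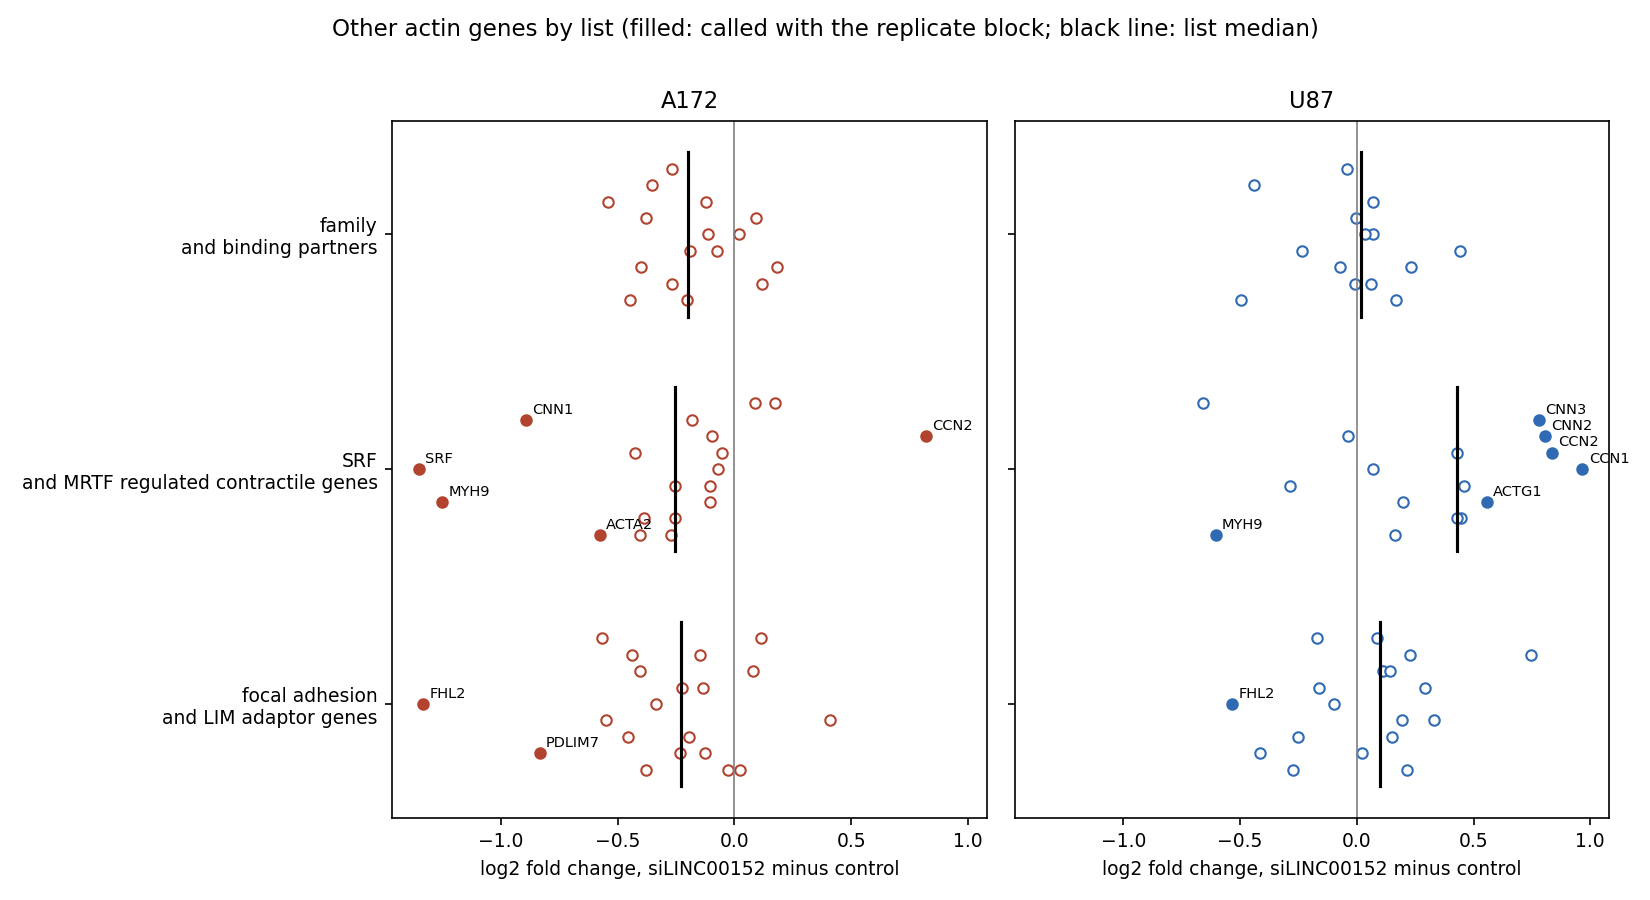
Log2 fold change after siLINC00152 (x axis) of the listed actin genes of 3 groups (y axis) in A172 and U87, with filled points for genes past the thresholds with the replicate block and a black line at each group's median. The contractile genes have a median of -0.25 in A172 (-0.13 without A172 set 2) and 0.43 in U87 (0.17 without U87 control set 3).

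Across the genes with a CArG box in a promoter window, the contractile list had 5 of 17 matched genes, the focal adhesion list 4 of 18 and the family list 1 of 10, beside 438 of all 27305 genes (1.60%).

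Markers of the cell types were checked against the labels. NES, VIM and CD44 were well above background on all arrays of both lines. The astrocyte markers GFAP and S100B were near background, with GFAP well above it on 1 of 6 A172 arrays and 0 of 8 U87 arrays, and SOX2 was well above background in A172 but on 0 of 8 U87 arrays. OLIG2 was well above background on 6 of 6 A172 and 3 of 8 U87 arrays, and CHI3L1 on 5 of 6 and 8 of 8. Several markers of other cell types also gave signal, and the highest was that of the probe for the B-cell gene CD79A, at a mean log2 signal of 9.08 in A172 and 10.40 in U87. Of the 5 muscle markers with a probe, 3 were well above background on all A172 arrays and 2 on all U87 arrays, the DES probe having the highest signal at 4.87 and 3.91. Signals of different probes do not rank RNA amounts. The immune list had 4 of 4 in A172 and 3 of 4 in U87, the endothelial list 3 of 4 and 2 of 4, and the epithelial list 1 of 4 in each line. Their part in the results was not tested.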

How the data were processed

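Agilent Feature Extraction 11.5.1.1 made the intensity values of the scanner files, as their headers say, by background subtraction and detrending (processed signal), with no normalization between arrays. The authors' deposited values are log2 intensities that rank spots as those signals do. Signals of non-control spots were put on the log2 scale, less the array's log2 75th percentile, outlier spots were dropped and spots of a probe averaged. Probes were named by RefSeq accession. R 4.3.3 and limma 3.58.1 fitted 1 model to all 14 arrays, with Benjamini-Hochberg adjustment over the probes tested in a line. The variance was moderated over probes tested in either line. This set was not laid down beforehand: each line's own probes were used initially, and the set was changed after the blocked counts under 6 forms had been seen and compared with counts already reported from these data. The spots that normexp is fitted on were likewise widened, to include control spots, after such a comparison. Arrays of the same number correlated at 0.712 to 0.837 in A172 and 0.384 to 0.869 in U87, others at -0.722 to -0.108 and -0.776 to 0.415. Values so far below 0 imply signals centred over few arrays, which by itself pushes unmatched arrays below 0. The sign of the unmatched values is therefore not read. Members and lists were chosen with earlier results of these data known. Named genes were all member and locus probes, listed genes past the thresholds with or without the block, otherwise the 2 highest and 2 lowest of a list, and the 3 most alike genes; not all of them are described. The code recovered changes placed in simulated arrays, which checks the code and not whether the model suits these arrays.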

Additional observations from a re-analysis of the deposited data

Results flagged for a closer look

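Among 86 groups of 4 U87 arrays examined, 10 (11.6%) held an array far from the others. Chance gives about 1 in 20 by the limit used if groups are independent, and these groups share the same 8 arrays. Of these, 8 concerned U87 control set 3, the array with the lowest share of spots well above background. On it, log2 signals were 1.913 for ABLIM3 (A_23_P256205), 2.3448 for PDLIM7, 5.2781 for FHL2 and 5.5374 for FLNA, all above the other U87 controls. Below the other U87 controls were its signals of 5.4695 for ACTG1, 0.5164 for CNN2, -1.6421 for CNN3 and -1.7072 for CCN1. FHL2 also stood high on U87 siLINC00152 set 3, at 4.7427. SORBS2 (A_24_P140475) stood low on U87 control set 1, at -4.2127, on an array where it was not well above background.

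Of 37 probes examined, 5 moved one way in every A172 pair and the other way in every U87 pair. The share of all tested probes with this pattern is not given, so the count is a description. The A172 effect minus the U87 effect was -2.7355 for ABLIM3 (A_24_P123408) and -2.9996 for FILIP1L, genes chosen with this difference known, so no test of it is given. It was -1.1856 for CNN3, -1.0194 for CCN1 and -0.818 for VCL. CCN1 hardly moved in A172, at -0.05 ± 0.52 (SE), beside 0.97 in U87. These 3 differences rest in part on U87 control set 3. Without that array the U87 effects fell from 0.78 to 0.19 for CNN3 and from 0.44 to 0.02 for VCL, and that of CCN1 fell as well. None of the 3 differences of CNN3, CCN1 and VCL passed the thresholds in limma without the block (each adjusted p = 1.00). Their values with the block, which pairs the arrays, are not given.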

How the results depend on the processing

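The number of probes past the thresholds depends on the replicate block. With it, 924 passed in A172, 918 in U87 and 89 for the difference between the lines, where 52, 11 and 2 passed without it. The probes that moderate the variance and the form of the block were varied after the results had been seen. With the block and each line's own tested probes moderating the variance, the counts were 945, 1216 and 280, and with probes that had a value on every array 944, 1215 and 280. With the block and all probes moderating it, they were 496, 351 and 8. With set numbers shared by both lines as the block they were 150, 82 and 3, and with each line fitted by itself with the block 1612 and 676. Without a block, the set of probes moderating the variance gave 52 or 46 in A172 and 11 or 10 in U87.

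Without a filter on dim probes 34 passed in A172, and 14 with A172 fitted by itself. With normexp and quantile normalization 41 passed in U87 and 0 for the difference, for which quantile normalization alone and the deposited values each gave 1. Without 1 set or array the counts ranged from 4 to 127 in A172 (127 without U87 set 3), from 2 to 17 in U87 and from 0 to 3 for the difference. Causes were not tested.

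The A172 direction of ABLIM3 (A_24_P123408), FILIP1L and SORBS2 (A_23_P121795 and A_24_P140475) was kept in all 38 alternatives, 7 of which were chosen after seeing the data. The ranges of the log2 fold change, whose ends nearest 0 come from normexp, were -2.68 to -0.79 (an end that an earlier result of these data did not reach, for a reason not found), -2.65 to -1.50, 0.28 to 1.99 and 0.29 to 1.35. Other values turned sign without single sets or arrays: SORBS2 (A_33_P3406861) in A172 (-0.17 to 0.30) and U87 (-0.36 to 0.24), SORBS3 in A172 (-0.20 to 0.37), ABLIM3 (A_23_P256205) in U87 (-0.10 to 0.17, also positive under normexp and median scaling), ABL2 in A172 (-0.25 to 0.56) and PTPN12 in U87 (-1.12 to 0.11). CCN2 and PTPN12 in U87 were too dim to be tested in some of these fits. Dim signals limit SORBS2, FILIP1, the ABLIM3 probe A_24_P123408 and, in U87, FILIP1L.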
